A study of Arabidopsis thaliana with 4 samples.

Results

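The SABATH methyltransferases are a plant enzyme family that transfers a methyl group from S-adenosylmethionine to the carboxyl group of small acids, many of them hormones or defense compounds. Methyl jasmonate and methyl salicylate, made in this way, are volatile, and methyl esterases can turn them back into the free acids. In Arabidopsis leaves, transcripts of several family members are known to increase after wounding, jasmonate treatment or pathogen attack.

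The genes described here are 6 loci of this family: *JMT* (AT1G19640), *BSMT1* (AT3G11480), *NAMT1* (AT5G04370) and the cluster AT5G37970, AT5G37990 and AT5G38020. They are a selection from the family, made with their difference between the genotypes in view, so that difference is given as a description, with no test, and other family loci with probe sets of their own are described apart. Values were taken from the probe set listed with the gene alone, of which each of the 6 had 1, among 21754 genes or probe sets with values. *JMT* lies on chromosome 1, *BSMT1* on chromosome 3 and the others on chromosome 5.

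RNA came from seedlings 2 weeks after germination, of the *aln-1* mutant (2 arrays) and of the wild type (WT, 2 arrays), both in the Col-0 background. The *aln-1* line carries a T-DNA insertion in *ALN*, the allantoinase gene, and was the only mutant allele on the arrays. The seedlings were grown aseptically on half-strength Murashige and Skoog medium with sucrose under 16 h light and 8 h dark, and the aerial parts are labelled as the tissue. Allantoinase breaks down allantoin, an intermediate of purine catabolism, and the comparison asks which transcripts differ when its gene is disrupted. Neither labels nor methods say whether the arrays of a genotype came from separate cultures or from pooled plants. Each p-value therefore covers only how far these arrays differ among themselves, and that spread may be technical.

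Each array gave 1 normalized score for each probe set. The score is on a logarithmic scale of unstated base, so differences are in score units and are not converted to fold changes. For orientation, 95% of all features lay between -0.44 and 0.54 in their difference, *aln-1* minus WT, with a median of -0.03. The median gap between replicate arrays was 0.0622 in *aln-1* and 0.0511 in WT, and its 95th percentile 0.260 and 0.205. The WT gaps of *NAMT1* (0.273), AT5G37970 (0.284), AT5G37990 (0.236) and AT5G38020 (0.269) were wider than that percentile. So was the *aln-1* gap of *NAMT1* (0.376), while the gaps of *JMT* and *BSMT1* were narrower in both genotypes. With 2 arrays a genotype, precision is limited by their number. Replicate arrays correlated across features at 0.981 in *aln-1* and 0.987 in WT, and arrays of different genotypes at 0.901 to 0.947. The *ALN* transcript itself scored -0.0466 and 0.00508 in *aln-1*, against 0.367 and 0.442 in WT, and fell by 0.43 (limma, standard error 0.05, adjusted p = 0.0116). The position of its probes relative to the insertion was not examined. This call was lost when WT replicate 1 (adjusted p = 0.0845) or WT replicate 2 (0.0726) was left out.

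All 6 SABATH genes had higher scores in *aln-1* than in WT, on both *aln-1* arrays against both WT arrays. In each of the 24 pairs of an *aln-1* and a WT array, over the 6 genes, the *aln-1* score was above the WT score. Over all features, 25.4% had genotypes that did not overlap with *aln-1* higher, and 41.4% with *aln-1* lower. Because the genes were chosen from this contrast, nothing is read from their count. Their median difference was 1.15, and the differences ran from 0.75 to 1.31. In whole aerial tissue, a change in RNA per cell and a change in the number of cells of a type cannot be told apart.

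**Figure D1:**
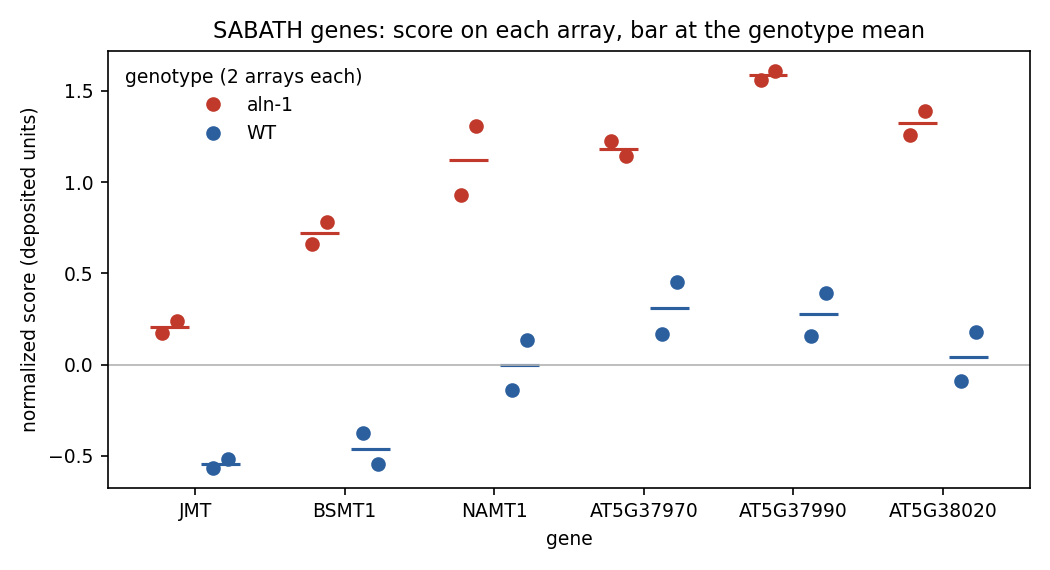
Normalized score (vertical axis, deposited units) of the 6 SABATH genes on each array, with *aln-1* in red at the left and WT in blue at the right of each gene, 2 points for each genotype and a bar at the mean. For each gene both red points lie above both blue points, and the replicate gap is widest for *NAMT1* in *aln-1*, at 0.376.

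*JMT* encodes the enzyme that methylates jasmonic acid (JA) to methyl jasmonate. Its scores were 0.175 and 0.239 in *aln-1*, against -0.566 and -0.520 in WT. The *aln-1* mean was 0.207 ± 0.0457 and the WT mean -0.543 ± 0.0329 (SD, n = 2 arrays each), a difference of 0.75. This was the smallest difference of the 6 and also the one with the closest replicates, 11.6 times the wider of its 2 replicate gaps. The WT scores of *JMT* stood near the bottom of their arrays, with 0.818% and 5.32% of features below them, where the lowest scores were -0.625 and -0.717. In *aln-1*, 51.0% and 54.4% of features scored below *JMT*. How far the lower end of the scale limits this difference, or narrows the gap between the WT replicates, was not tested.

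*BSMT1* encodes a methyltransferase of salicylic acid (SA) and benzoic acid. It scored 0.658 and 0.780 in *aln-1*, against -0.375 and -0.546 in WT. The means were 0.719 ± 0.0859 in *aln-1* and -0.461 ± 0.122 in WT (SD, n = 2 each), and they differed by 1.18. As for *JMT*, its WT scores were low on the arrays, with 10.1% and 3.93% of features below them, and its *aln-1* scores had 75.1% and 79.6% below. *BSMT1* was the gene for which WT replicate 2 scored lower than WT replicate 1, whereas for the other 5 genes WT replicate 2 scored higher.

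*NAMT1* is named for the methylation of nicotinic acid, a precursor in NAD metabolism. Its scores were 0.931 and 1.31 in *aln-1*, against -0.137 and 0.137 in WT. The means were 1.12 ± 0.266 in *aln-1* and -0.000138 ± 0.193 in WT (SD, n = 2 each), and they differed by 1.12. Its WT scores had 29.8% and 48.0% of features below them, and its *aln-1* scores 84.5% and 92.2%. This gene had the widest spread of the 6, and its difference was 2.98 times its wider replicate gap. Leaving out 1 array at a time moved the difference between 0.93 and 1.31.

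The remaining 3 genes lie close together on chromosome 5, and their substrates are not named in the sources used here. AT5G37970 scored 1.23 and 1.14 in *aln-1*, against 0.169 and 0.452 in WT, a difference of 0.87. AT5G37990 scored 1.56 and 1.61 in *aln-1*, against 0.157 and 0.393 in WT, a difference of 1.31. AT5G38020 scored 1.26 and 1.39 in *aln-1*, against -0.0921 and 0.177 in WT, a difference of 1.28. Unlike *JMT* and *BSMT1*, but like *NAMT1*, the genes of this cluster were at mid-array scores in WT. Between 33.1% and 64.7% of features were below them there, and in *aln-1* they stood above 89.3% to 95.7% of features. All 3 scored higher on WT replicate 2 than on WT replicate 1, by 0.236 to 0.284. With both WT scores below *aln-1*, this alone places WT replicate 2 nearer to *aln-1* for each of them. *NAMT1* and *JMT* had WT gaps in the same direction (0.273 and 0.0465), and *BSMT1* in the other (-0.172). Across all features too, WT replicate 2 correlated more with the *aln-1* arrays (0.947 and 0.920) than WT replicate 1 did (0.930 and 0.901). AT5G37970 was the gene of the 6 with the lower score on *aln-1* replicate 2, with a gap of -0.0839 (replicate 2 minus replicate 1). Over all features, 50.9% scored higher on *aln-1* replicate 2.

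In order of the difference between genotypes, the genes ran AT5G37990, AT5G38020, *BSMT1*, *NAMT1*, AT5G37970 and *JMT*. For genes next to each other in this order, the ranges of array-pair differences overlapped. The ranges were compared without matching the array pairs, so an overlap does not show that the differences were alike. Of the 15 pairs of genes, 5 had ranges that did not overlap. These were AT5G37990 and AT5G38020, each against AT5G37970 and against *JMT*, and *BSMT1* against *JMT*. Thus within the chromosome 5 cluster AT5G37970 stood apart from AT5G37990, with array-pair differences of 0.69 to 1.06 against 1.17 to 1.45. The margin between AT5G37970 and AT5G38020 was narrow, with a highest array-pair difference of 1.06 in AT5G37970 and a lowest of 1.08 in AT5G38020. Over the 4 arrays, with each gene centred on its own mean, the most alike pair of the 15 was AT5G37990 and AT5G38020, at a Euclidean distance of 0.0674 score units. The next pairs were *JMT* with AT5G37970, at 0.233, and *NAMT1* with AT5G38020, at 0.237. Probe sequences were not used here, so how far probes for related loci detect the same transcript was not tested.

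Of 24 loci listed here as members of the family, 13 had a probe set of their own with values, which leaves 7 besides the 6 genes above. The list was drawn up from general knowledge of the family. None of the 7 had both *aln-1* scores above both WT scores, and 4 had both below, where 25.4% and 41.4% of all features did so, and with 7 genes nothing is read from these counts. These 7 are described without a test, since the choice of the 6 genes divided the family on this contrast. Their differences ran from -0.52 to 0.04, with a median of -0.24. AT3G21950 scored 0.0362 and -0.0766 in *aln-1*, against 0.441 and 0.565 in WT, a difference of -0.52 and the lowest of the 13 genes with a probe set of their own. AT5G38100, the other family member near the chromosome 5 cluster, scored -0.607 and -0.402 in *aln-1*, against -0.0508 and -0.0781 in WT, a difference of -0.44. AT5G38780 and AT2G14060 were also lower in *aln-1*, by differences of -0.35 and -0.24. For AT1G68040, AT1G66720 and AT4G36470, with differences of 0.04, -0.05 and -0.08, the arrays of the genotypes overlapped. Several of these scores were low on the arrays. The *aln-1* means of AT2G14060, AT1G66720, AT5G38780 and AT5G38100 had 1.95%, 3.35%, 5.51% and 6.84% of features below them. Another 3 family loci had a probe set of their own without values, among them AT5G04380, the gene next to *NAMT1*, and 8 had no probe set listed with them alone. These 11 were not analysed here as single genes. Of these, AT3G44860 and AT3G44870 share a probe set that was higher in *aln-1* (difference 1.79). AT1G66700 and AT1G66690 share another, which was lower (difference -0.81).

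**Figure D2:**
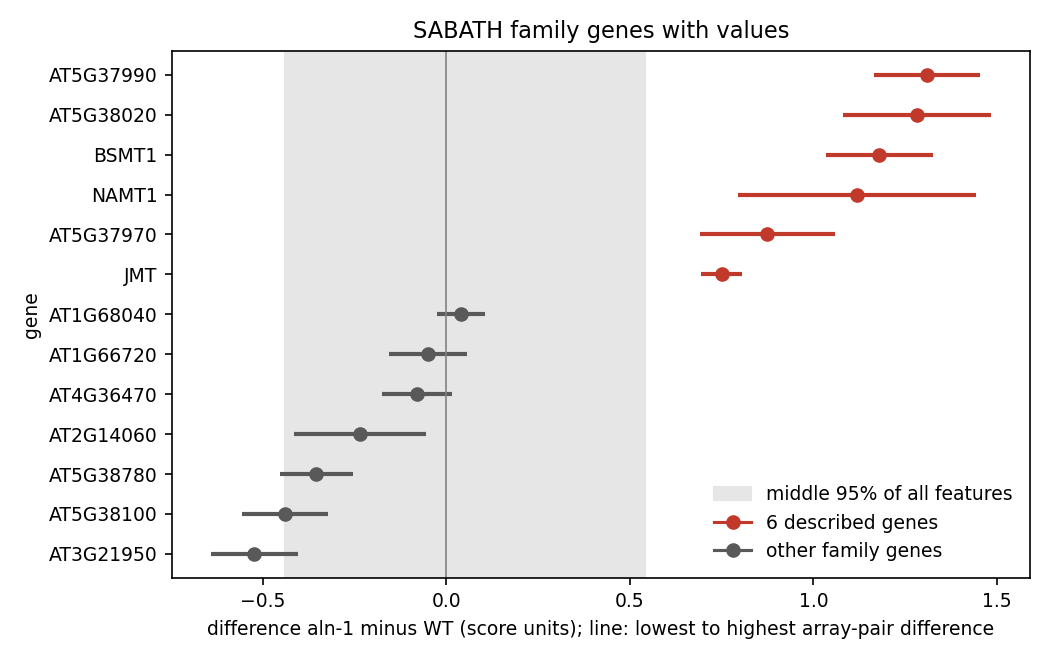
Difference between the genotypes, *aln-1* minus WT in score units (horizontal axis), for the 13 SABATH genes with values. Points are differences of genotype means, lines run from the lowest to the highest of the 4 array-pair differences, and the grey band holds the middle 95% of all features. The 6 described genes (red), chosen from this contrast, lie at 0.75 to 1.31, beyond the band, and the other 7 (grey) at -0.52 to 0.04.

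The genes next to the SABATH loci were read from the limma fit across all features, to see whether the surroundings of the loci differed as well. The neighbors were the 10 protein-coding genes on each side in the gene order of assembly TAIR10.1, together with the genes between the cluster members, 83 genes in all. Of these, 40 outside the family had values and were tested. In *aln-1*, 9 of the 40 rose (22.5%) and 0 fell at an adjusted p under 0.05, where 7.42% of all features were called higher and 8.17% lower. At an unadjusted p under 0.05 the counts were 16 and 4. The shares of all features at that unadjusted threshold are not given here, so nothing is read from the unadjusted counts in this paragraph. The median difference of the neighbors was 0.04, beside -0.03 over all features. These counts changed when an array was left out, as did the counts over all features. Without WT replicate 1 or WT replicate 2, 0 neighbors were called in either direction (9 and 10 higher, 1 and 3 lower at an unadjusted p under 0.05), and without *aln-1* replicate 2, 3 were called higher. In such fits the lone array of a genotype is assumed to vary like the others.

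Within and around the chromosome 5 cluster, called and uncalled genes lay side by side. AT5G37980, which lies between AT5G37970 and AT5G37990, scored 0.215 and 0.0554 in *aln-1*, against 0.000528 and 0.0942 in WT, a difference of 0.09 (standard error 0.07, adjusted p = 0.429). On the outer side of AT5G37970, AT5G37960 had a difference of -0.06 (standard error 0.08, adjusted p = 0.585), with scores near the bottom of the arrays. AT5G38030, next to AT5G38020, rose by 0.44 (standard error 0.06, adjusted p = 0.0169), with scores of 0.842 and 0.934 in *aln-1*, against 0.391 and 0.511 in WT. AT5G37930 and *4CL8*, 4 and 10 genes away from the cluster, also rose, by 0.18 and 0.58 (adjusted p = 0.0459 and 0.0431). AT5G38000 and AT5G38010, between AT5G37990 and AT5G38020, had no probe set listed with them alone.

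At *BSMT1*, 4 of 10 tested neighbors rose, where 7.42% of all features were called higher, and with 10 genes nothing is read from this count. Among the 4 were the genes directly on either side. AT3G11490 scored 0.347 and 0.441 in *aln-1*, against -0.0179 and 0.0908 in WT, a rise of 0.36 (adjusted p = 0.0245). AT3G11470 rose by 0.20 (adjusted p = 0.0463, close to the threshold). AT3G11420 and AT3G11580, 6 and 10 genes away, rose by 0.48 and 0.33 (adjusted p = 0.0109 and 0.0314). Each of these was less than the difference of *BSMT1* itself, 1.18. Since *BSMT1* was chosen from this contrast, nothing is read from that. At *NAMT1*, *CYP84A4*, a cytochrome P450 gene 5 genes away, rose by 0.30 (adjusted p = 0.0269), as the only call among 9 tested neighbors. At *JMT*, the only call among 10 was AT1G19540, 9 genes away, which rose by 0.40 (adjusted p = 0.0468). The genes on either side of *JMT*, AT1G19620 and AT1G19650, had differences of -0.04 and 0.23 and were not called (adjusted p = 0.638 and 0.0897).

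**Figure D3:**
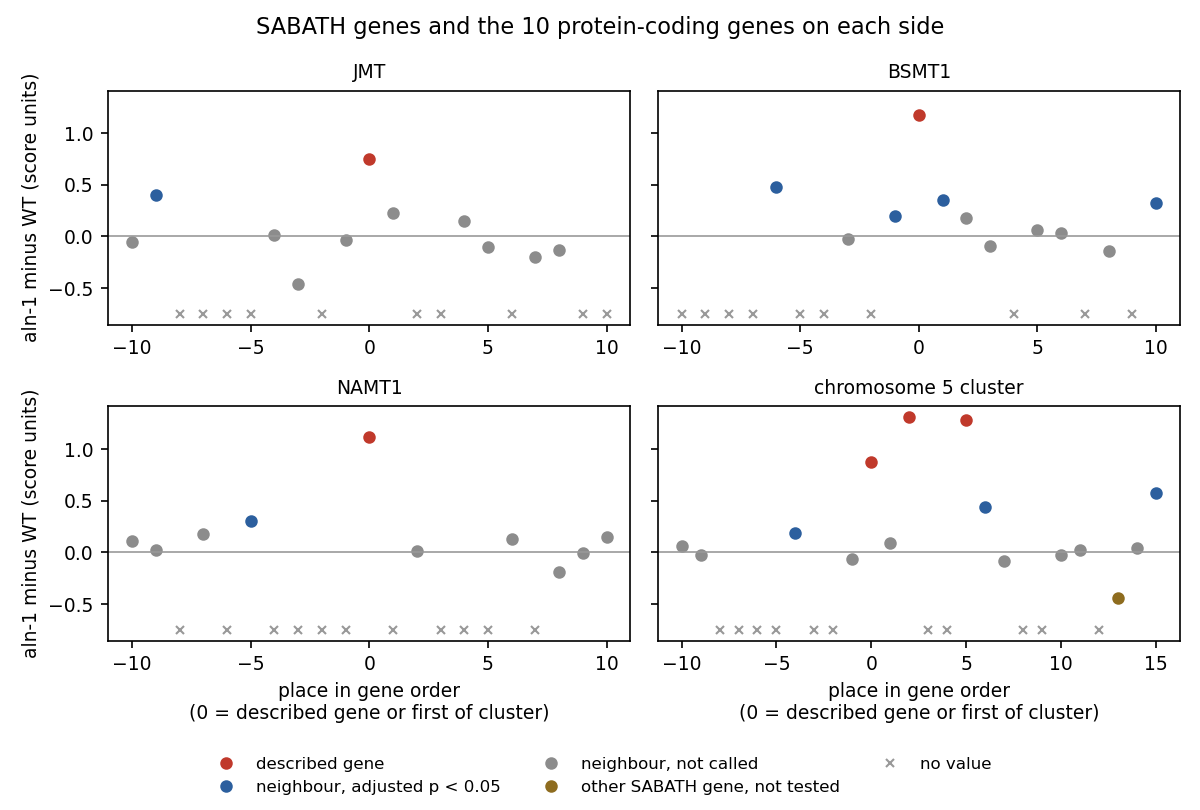
Difference between the genotypes, *aln-1* minus WT in score units (vertical axis), against place in gene order (horizontal axis, genes counted from the described gene or from AT5G37970) in 4 panels, for *JMT*, *BSMT1*, *NAMT1* and the chromosome 5 cluster. Red points are the described genes, blue points neighbors at an adjusted p under 0.05, grey points neighbors not called, the brown point AT5G38100, and crosses genes without a value. The described genes, which were chosen from this contrast, stand above all neighbors in each panel, and nothing is read from that. The highest difference of a neighbor is 0.58 (*4CL8*).

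Genes for the acids that these enzymes use were also read from the fit, from lists for JA, SA and nicotinate metabolism, for volatile terpenes and aldehydes and for regulators, with leaf and root markers. The lists named 129 genes together with flower and seed markers, methyl esterases and the S-adenosylmethionine cycle, and 17 of them had values. Of the 17, 4 rose and 1 fell, where 7.42% of all features were called higher and 8.17% lower. Earlier results of these data were known when the lists were chosen, so nothing is read from these counts. The annotation used here listed 8730 of 22746 probe sets with no gene, so a listed gene without a value may still be on the array, and its level was not analysed here. Of 20 methyl esterase genes and 10 genes of the S-adenosylmethionine cycle, none had a probe set listed with it alone, and they were not analysed here. The same held for the 7 flower and 3 seed markers.

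The JA metabolism list, upstream and beside *JMT*, holds genes of JA synthesis and of steps that convert JA further. It had 4 of 21 genes with values, and 3 of them rose. Only *OPCL1* of the 4 is given here as a gene of JA synthesis, so the other values are not read as a change in that synthesis. The median difference of the 4 was 0.91, beside -0.03 over all features. As this list was chosen with earlier results of these data known, nothing is read from its count or median. *OPCL1*, a CoA ligase of JA synthesis, scored 1.53 and 1.64 in *aln-1*, against 1.24 and 1.27 in WT, and rose by 0.33 (standard error 0.06, adjusted p = 0.0234 from limma). AT5G05600 scored 1.97 and 2.32 in *aln-1*, against 0.929 and 1.07 in WT, and rose by 1.15 (standard error 0.13, adjusted p = 0.0104). AT2G38240 rose by 1.88 (standard error 0.28, adjusted p = 0.0185), with 1.34 and 2.2 in *aln-1*, against 0.000128 and -0.228 in WT. *JRG21*, a jasmonate-regulated gene, scored 0.538 and 0.998 in *aln-1*, against 0.551 and -0.346 in WT, and its arrays overlapped between the genotypes (difference 0.67, standard error 0.32, adjusted p = 0.205). Its difference was 0.22 without WT replicate 2, 0.44 without *aln-1* replicate 2 and 1.11 without WT replicate 1, and was not called in any of these fits (adjusted p = 0.55, 0.494 and 0.116). None of the 3 calls held without WT replicate 1 or without WT replicate 2. In those fits the adjusted p of AT5G05600 was 0.094 and 0.0558, that of AT2G38240 0.117 and 0.104, and that of *OPCL1* 0.159 and 0.111. Without *aln-1* replicate 2 the adjusted p of *OPCL1* was 0.0535.

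Of the SA metabolism list, the acid side of *BSMT1*, 2 of 14 genes had values, and neither passed the test, which leaves most of that side undescribed. *UGT74F1*, an SA glucosyltransferase gene, had a difference of 0.13 (standard error 0.06, adjusted p = 0.223). *UGT76B1*, another glycosyltransferase gene, scored 0.258 and 0.879 in *aln-1*, against 0.50 and 0.138 in WT, so that the genotypes overlapped (difference 0.25, standard error 0.23, adjusted p = 0.481). On the nicotinate side of *NAMT1*, 3 of 10 genes had values and none passed. *NMNAT*, which forms the dinucleotide in NAD synthesis, scored 0.196 and 0.183 in *aln-1*, against 0.0634 and -0.0351 in WT (difference 0.18, adjusted p = 0.0806). *QPT*, the entry step from quinolinate, scored 1.05 and 1.06 in *aln-1*, against 1.17 and 1.18 in WT (difference -0.12, adjusted p = 0.113). AT1G55090 had a difference of 0.01 (adjusted p = 0.944). At an unadjusted p under 0.05 *NMNAT* and *QPT* would pass, in opposite directions. The gene of the volatile list with values, AT5G44630, had a difference of 0.11 (adjusted p = 0.344). Of the regulators, *MYC3* and *MYC4*, which encode basic helix-loop-helix factors of JA signaling, had differences of 0.11 and -0.05 (adjusted p = 0.152 and 0.593).

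**Figure D4:**
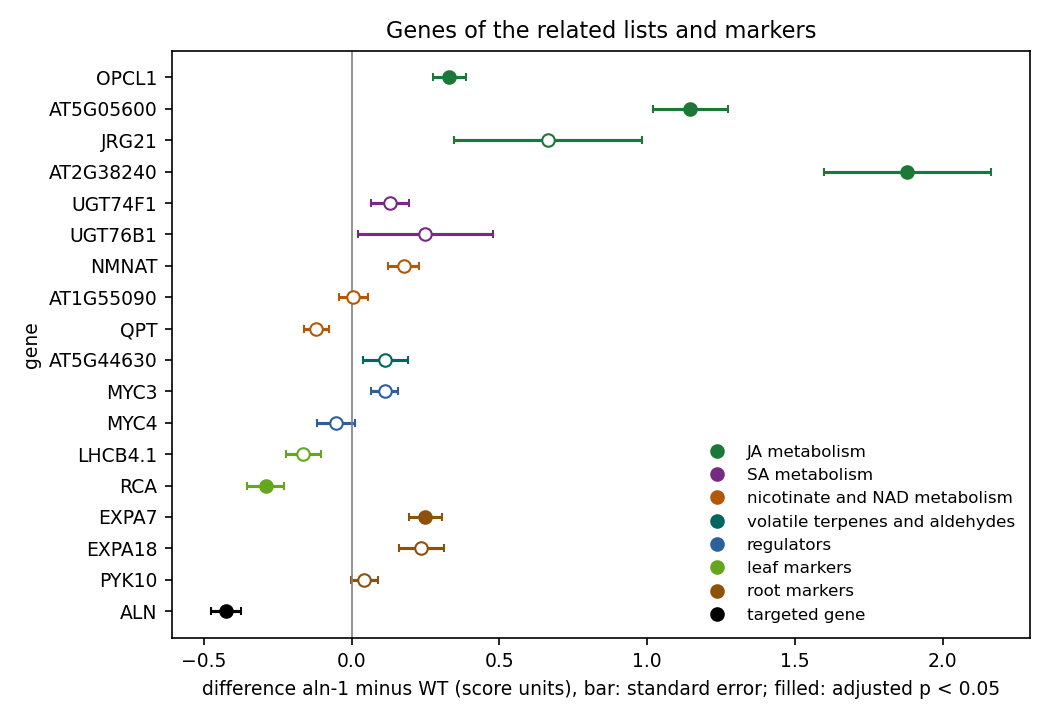
Difference between the genotypes, *aln-1* minus WT in score units (horizontal axis), with the standard error from limma, for the 17 genes with values in the related lists and for *ALN*. Colors mark the list, and filled points have an adjusted p under 0.05. AT2G38240 (1.88) and AT5G05600 (1.15) lie farthest to the right, and *ALN* (-0.43) farthest to the left.

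The tissue label was read against the markers that had values, 2 of 14 for leaf and 3 of 13 for root. The photosynthesis genes *RCA* and *LHCB4.1* were among the highest scores of the arrays, above 99.6% or more of features by their *aln-1* and WT means. *RCA* scored 2.52 and 2.39 in *aln-1*, against 2.77 and 2.72 in WT, and fell by 0.29 (adjusted p = 0.039). *LHCB4.1* had a difference of -0.16 (adjusted p = 0.118). The mean of both was 2.63 and 2.51 in *aln-1*, against 2.83 and 2.76 in WT. Of the root markers, the root hair expansin gene *EXPA7* scored -0.104 and 0.00141 in *aln-1*, against -0.277 and -0.324 in WT, and rose by 0.25 (adjusted p = 0.0431). The other root hair expansin gene, *EXPA18*, had a difference of 0.24 (adjusted p = 0.0918). *PYK10*, a beta-glucosidase gene of roots and hypocotyls, scored 2.67 and 2.73 in *aln-1*, against 2.65 and 2.66 in WT (difference 0.04, adjusted p = 0.555). Its mean stood above 99.9% of features in *aln-1* and 99.8% in WT, as high on the arrays as the leaf genes. The means of *EXPA7* and *EXPA18* stood above only 38.2% and 48.0% of features in *aln-1*, and 18.8% and 32.5% in WT. The mean of the 3 root markers was 0.869 and 0.976 in *aln-1*, against 0.730 and 0.763 in WT. The calls of *RCA* and *EXPA7* did not hold without *aln-1* replicate 2 (adjusted p = 0.0867 and 0.108), WT replicate 1 (0.212 and 0.183) or WT replicate 2 (0.142 and 0.187). The part of these shifts in the scores of the SABATH genes was not tested.

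Outside the family, the named genes with patterns most like those of the 6 were sought by the Euclidean distance of the 4 centred scores, 3 genes for each. The distances are a description over these 4 arrays, which the genes share. For *JMT* the closest were AT4G02540, AT4G14060 and *IAA18*, at 0.0141, 0.029 and 0.0583. AT4G02540 scored 0.518 and 0.584 in *aln-1*, against -0.208 and -0.163 in WT. For *NAMT1* they were AT2G34930, AT1G72140 and AT5G16010, at 0.0367, 0.0801 and 0.0925. AT2G34930 scored 0.879 and 1.31 in *aln-1*, against -0.164 and 0.112 in WT. *BSMT1* had more distant matches than *JMT* and *NAMT1*, AT2G25450 and AT2G03980 at 0.114 and 0.117 and the sulfurtransferase gene *STR18* at 0.142. AT5G37970 was closest to AT5G19875 (0.0947), AT3G21670 (0.143) and AT1G78070 (0.149). AT5G37990 and AT5G38020 shared AT5G04120 (0.149 and 0.0916) and AT5G26260 (0.167 and 0.117) among their 3. The other match of AT5G37990 was AT1G16850 (0.135), and that of AT5G38020 was AT4G36010 (0.123).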

How the data were processed

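Per the labels, RNA was hybridized as biotin-labelled cRNA to Affymetrix ATH1 arrays. The authors renormalized the earlier raw data parametrically in SuperNORM, on a lognormal model, and deposited the result as 1 score for each probe set and array. For the log base, probe summary and background step, the sources used here give nothing. The authors also deposited p-values of a two-way ANOVA, for group and interaction, which were not used. A second table held the same scores (largest difference 4.6e-08). Of 22746 probe sets without controls, 842 had no values. The platform's annotation listed 13513 with 1 gene, of which 13436 matched TAIR10.1 by gene ID. The probe set with the highest mean stood for a gene. The main test was limma 3.58.1 (lmFit, eBayes, R 4.3.3), two-sided, fitted on genotype alone, with Benjamini-Hochberg adjustment over 21754 features, of which 12719 had a gene name. The fit was tested on simulated data. ANOVA was not rerun, since its second factor is not named. The alternatives were a replicate block, quantile normalization, median centring, a filter on low means, a trend, probe set means, fewer probe set classes, fewer neighbors and single arrays left out.

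The genes named were the 6, *ALN*, up to 4 genes of each list with the smallest p, each called neighbor and, for each of the 6, the 3 most alike genes. AT5G37960, AT5G37980, AT1G19620, AT1G19650 and the last 3 of the 7 other family genes were added after their values were seen. Members and lists were chosen with earlier results of these data known. Protein and promoter sequences were not used here.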

Additional observations from a re-analysis of the deposited data

How the results depend on the processing

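The median difference of the 6 SABATH genes, 1.15, stayed between 1.03 and 1.27 with 1 array left out (1.17 after quantile normalization or median centring). The block and probe set means cannot move these differences, and since all array pairs ran one way, their direction without an array is fixed by the choice of genes. The difference of *JMT* moved to 0.80 after quantile normalization. Over all features, 1615 were called higher and 1778 lower, and leaving out 1 array gave 71 to 2114 higher and 61 to 2372 lower. For the related lists these ranges were 0 to 5 higher and 0 to 1 lower, and for the neighbors 0 to 10 and 0 to 1. With 5 genes on each side, 5 neighbors were called higher. Fits without an array have fewer degrees of freedom. Without the third of features with the lowest mean, 14 list genes were left, and 3 were called higher and 1 lower. With replicate number as a block, 1918 features were called higher and 1854 lower, 7 neighbors rose instead of 9, *EXPA7*, AT3G11470 and AT5G37930 were not called (adjusted p = 0.0508, 0.0648 and 0.0738) and *EXPA18* was (0.0394). Deviations of same-numbered arrays from their genotype means correlated at 0.0413 across features, and nothing in the labels pairs them. The planned description of promoter motifs and protein identity was not run.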

Other observations

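Besides the probe sets of single genes, 2 probe sets were each listed with 2 loci of the SABATH family, so that their signal cannot be given to either locus. The probe set 246340_s_at scored 2.12 and 2.23 in *aln-1*, against 0.336 and 0.434 in WT, a difference of 1.79, which is above that of each of the 6 genes described. The probe set 256376_s_at went the other way, with -0.278 and -0.287 in *aln-1*, against 0.820 and 0.228 in WT, a difference of -0.81. In both, the arrays of the genotypes did not overlap, and the WT arrays of 256376_s_at lay far apart. Both values are given without a test.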
